A study of Homo sapiens with 8 samples.

Results

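The transcripts of 10 genes that mark the epithelial and the mesenchymal state of a cell were followed in PC3 cells, an established human prostate cancer (PCa) line, with and without IER5L silencing. They were chosen by name: CDH1, EPCAM and ESRP1 for the epithelial state, CDH2 and VIM for the mesenchymal state, and the transcription factors ZEB1, ZEB2, SNAI1, SNAI2 and TWIST1. All 10 had a row among the 58051 genes of the count table, and 9 of them had enough counts to be tested. The table holds 8 samples of PC3 cells, 4 transduced with a lentiviral scramble hairpin (shScramble) and 4 with the sh2 hairpin against IER5L (shIER5L). The sample titles call them biological replicates 1 to 4 of each hairpin. Both groups had the same puromycin selection, and only 1 IER5L hairpin was sequenced. The time from transduction to harvest is not given in the sources used here. Where the text gives p-values, they measure the spread between these replicates of 1 cell line.

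Epithelial cells hold to their neighbors through E-cadherin, and they keep a belt of junctions and a keratin skeleton. In the epithelial-mesenchymal transition (EMT), factors of the ZEB, SNAIL and TWIST families bind E-box sequences and repress E-cadherin and other epithelial genes, while N-cadherin and vimentin become abundant. Many carcinoma cells, PC3 among the lines used to study this in PCa, stop at points between those states and show markers of both. ZEB1 and ZEB2 are in turn held down by the miR-200 microRNAs, which pair with sites in their 3' UTRs, and ZEB factors repress the miR-200 genes.

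The miR-200 family carries 2 seeds, the bases 2 to 8 by which a microRNA finds its targets. The mature sequences of its 5 members are shown because their matches set the ZEB genes apart from most of the other genes described. They come from RefSeq (GRCh38.p14), and capitals mark the seed.
hsa-miR-200b-3p: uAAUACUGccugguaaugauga
hsa-miR-200c-3p: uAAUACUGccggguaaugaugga
hsa-miR-429: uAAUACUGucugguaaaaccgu
hsa-miR-200a-3p: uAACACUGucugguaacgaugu
hsa-miR-141-3p: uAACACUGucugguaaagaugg
The seeds of the first 3 and of the last 2 differ at a single base. The genes of miR-200b, miR-200a and miR-429 lie together on the plus strand of chromosome 1, and their mature parts span chr1:1167160-1167181, chr1:1167916-1167937 and chr1:1169055-1169076 of GRCh38. The mature parts of miR-200c and miR-141 span chr12:6963742-6963764 and chr12:6964155-6964176. All 5 genes were at 0 counts in the 8 samples, and libraries of this kind do not capture mature microRNAs, so their levels were not measured.

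The DNA letters that pair with these seeds are CAGTATT and CAGTGTT. They were searched on the transcript strand in the longest annotated 3' UTR (GENCODE v44, hg38) of 12701 genes tested, where 20.71% held CAGTATT and 22.82% held CAGTGTT. ZEB1 held 6 matches of the first kind and 3 of the second in 2549 bases, and ZEB2 held 5 and 4 in 5370 bases, against a median 3' UTR of 1540 bases over the genes searched. A pair of matches of each is shown with its neighboring bases, the match in capitals, ZEB1 on the plus strand and ZEB2 on the minus strand.
ZEB1, chr10:31527633-31527639: tatcttatCAGTATTatcactct
ZEB1, chr10:31528046-31528052: atcagaatCAGTGTTtgtgattg
ZEB2, chr2:144389053-144389059: ccatacatCAGTATTtttattat
ZEB2, chr2:144389237-144389243: attttgtaCAGTGTTaaggccta
Of the other 8 genes, SNAI2 held 1 CAGTATT, ESRP1 held 1 of each kind, and CDH1, CDH2, VIM, SNAI1, EPCAM and TWIST1 held neither. A match says only that these letters are in the window. The miR-200 genes and these searches were added with the earlier results known.

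The hairpin itself was compared with the same 3' UTRs, since a small RNA can pair with transcripts other than its target through a short stretch. The listed sh2 sequence is shown with bases 11 to 18 in capitals, which hold the heptamers ACATCTC and CATCTCA that an earlier analysis of these counts had singled out, so that they are no independent evidence here.
sh2 IER5L: gacgcgtccaACATCTCAaac
Among the genes searched, 11.42% held ACATCTC, 18.86% held CATCTCA and 24.03% held either, the heptamers overlapping by all but their outer bases. Of the 10 genes described, ZEB1 alone held one of them, a single CATCTCA.
ZEB1, chr10:31529170-31529176: cagactccCATCTCAcaataaaa
Another heptamer of the hairpin, TCTCAAA at its bases 14 to 20, was in 28.39% of the genes and lay 2 times in the 3' UTR of CDH1. TWIST1 held none of the 3 heptamers.

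**Figure D1:**
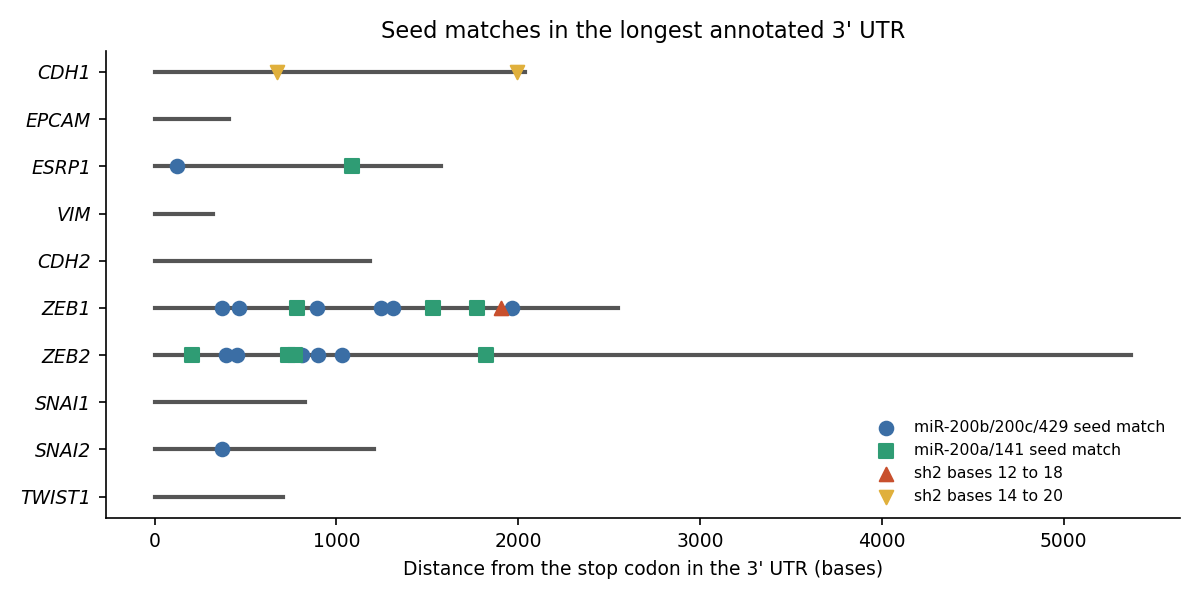
Positions of miR-200 seed matches and of hairpin heptamers in the longest annotated 3' UTR of the 10 genes, as the distance from the stop codon in bases, with each horizontal line as long as the 3' UTR. ZEB1 and ZEB2 each carry 9 seed matches, those of ZEB2 all before the middle of its 3' UTR, while TWIST1, VIM, CDH2, EPCAM and SNAI1 carry no mark of either kind.

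Total counts ran from 21512128 to 24662190 per sample, and replicates of a condition correlated between 0.988 and 0.992 across genes in log2 CPM, the read count relative to the library size after TMM scaling. IER5L itself had 83, 154, 140 and 72 counts in shScramble samples 1 to 4, and 62, 72, 49 and 29 counts in the shIER5L samples. The log2 fold change was -1.08 (SE 0.248, edgeR quasi-likelihood test, Benjamini-Hochberg adjusted p = 0.0212). Leaving out shScramble 2, shScramble 3 or shIER5L 3 raised that adjusted p to 0.0937, 0.0780 and 0.0891. The level left in IER5L-silenced cells was 0.474 times that of shScramble cells (95% interval 0.329 to 0.682).

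Across all 16959 genes tested, 666 had an adjusted p under 0.05, which is 3.93%. Of these, 418 were higher in IER5L-silenced cells (2.46%) and 248 were lower (1.46%). None of the 9 tested genes of the EMT set was among them, and so none was among the 134 genes (0.790%) that also changed by at least 0.5 on the log2 scale. At an unadjusted p under 0.05, which 2792 genes (16.5%) met, TWIST1 was the only one of the 9. DESeq2 called 947 of the 13013 genes to which it gave an adjusted p (7.28%), among them 1 of the 9, also TWIST1; it gave none for CDH1. The median log2 fold change of the 9 genes was -0.0047, with 4 above 0 and 5 below, beside 0.0021 over all genes tested.

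Levels were compared between genes as RPKM, the reads per kilobase of counted exon in a library of standard size, from TMM-scaled counts. VIM was the most abundant of the 10, with a mean of 104 RPKM over the 8 samples (SD 3.83), above 97.6% of the genes tested. CDH2 followed with 17.5 RPKM (SD 1.12). SNAI2 with 11.3 (SD 1.01) and EPCAM with 11.2 (SD 0.825) overlapped over the samples. The epithelial adhesion gene EPCAM and the mesenchymal repressor gene SNAI2 could thus not be put in order. ZEB1 with 8.74 RPKM (SD 0.427) and TWIST1 with 8.31 (SD 1.24) also overlapped. A gap of 26.2-fold then separated TWIST1 from ESRP1, which had 0.317 RPKM (SD 0.0667). The last 3 genes, CDH1 with 0.187 RPKM (SD 0.0236), ZEB2 with 0.169 (SD 0.0306) and SNAI1 with 0.137 (SD 0.0958), overlapped in that order. CDH1 and ESRP1 stood above 5.11% and 10.3% of the genes tested. Between the other neighbors in the order, the sample ranges did not overlap. ZEB2 is counted over 23707 bases of exon, far more than the 8650 bases of ZEB1, and its RPKM rests on that length.

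**Figure D2:**
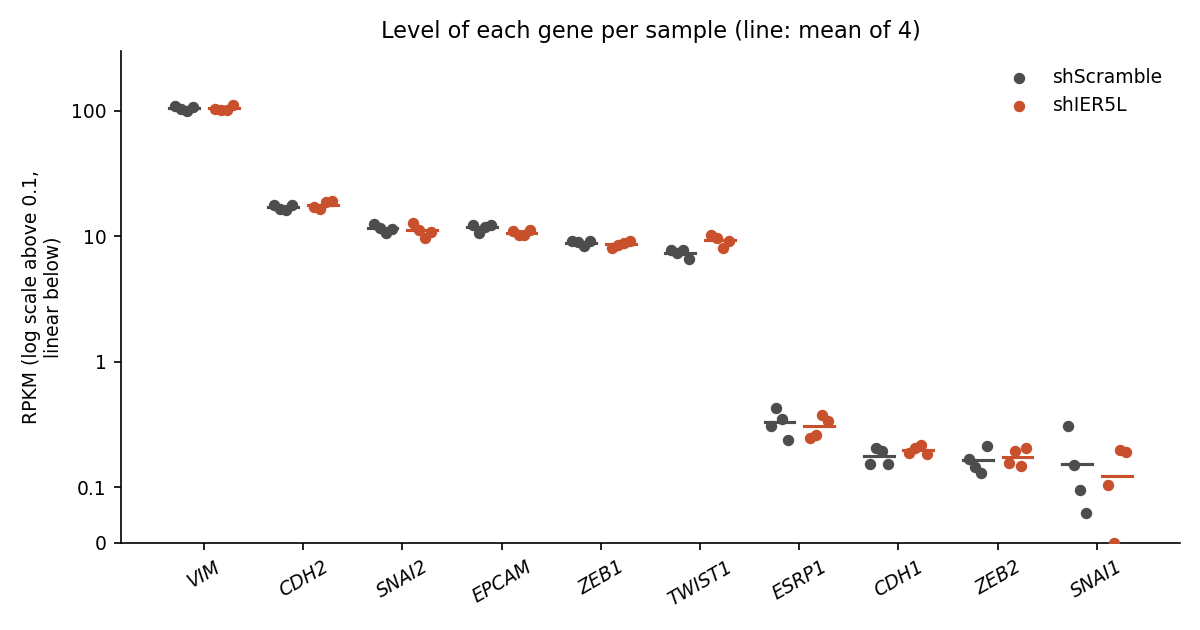
Level of each of the 10 genes in the 4 shScramble and 4 shIER5L samples in RPKM, on a scale that is logarithmic above 0.1 and linear below, with a line at each group's mean. The genes fall into 6 with levels from 6.57 RPKM upward and 4 that never passed 0.425 RPKM, and the points of both conditions overlap for each gene except TWIST1.

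CDH1 encodes E-cadherin, the adhesion molecule that defines epithelial junctions, and was close to silent in both conditions. It had 20, 30, 30 and 21 counts in shScramble samples 1 to 4, and 26, 30, 32 and 25 counts in the shIER5L samples. The ranges overlapped in part, with shScramble 1 and 4 below all shIER5L samples. In CPM that was 1.09 ± 0.172 (SD, n = 4) against 1.22 ± 0.0922 (SD, n = 4). The log2 fold change was 0.16, with a 95% interval from -0.35 to 0.67 (edgeR adjusted p = 0.815). At this depth the interval leaves room for changes between those bounds, more for a rise than for a fall. The gene spans 68737225 to 68835548 on chromosome 16 of hg38, plus strand.

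EPCAM, a surface glycoprotein of epithelial and carcinoma cells, was the one epithelial gene of the set with a solid level. Its CPM were 30.7, 26.7, 29.8 and 30.8 in shScramble samples 1 to 4, and 27.8, 25.7, 25.8 and 28.3 in the shIER5L samples. shScramble 2 lay within the range of the shIER5L samples, and the other 3 shScramble samples lay above it. The log2 fold change was -0.13 (SE 0.0728, 95% interval -0.29 to 0.02), with an edgeR adjusted p of 0.394 (0.0852 before adjustment). A two-sided exact permutation test of the CPM gave p = 0.0857, where 4 samples against 4 allow no p below 0.0286. EPCAM is on chromosome 2, plus strand, from 47345158 to 47387601.

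ESRP1 directs the splicing of epithelial forms of transcripts such as FGFR2 and CD44, and its loss is a known step of EMT. Its counts were 32, 49, 42 and 26 in shScramble samples and 27, 30, 44 and 36 in shIER5L samples. No direction can be read from them, since the sign of the log2 fold change (-0.12, 95% interval -0.63 to 0.39, edgeR adjusted p = 0.868) turned to 0.02 without shScramble 2. It spans 94641074 to 94707466 on chromosome 8, plus strand.

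CDH2 encodes N-cadherin, the cadherin of mesenchymal and neural cells that replaces E-cadherin in the cadherin switch. Its CPM were 87.9, 81.8, 80.4 and 88.2 in shScramble samples, and 84.5, 80.9, 93.4 and 94.8 in shIER5L samples. shIER5L 3 and 4 were above all shScramble samples, while shIER5L 1 and 2 lay among them. Its log2 fold change was 0.06 (SE 0.0599, 95% interval -0.06 to 0.19, edgeR adjusted p = 0.670). Per kilobase, the level of CDH2 was 80.5 to 117 times that of CDH1 in shScramble samples and 80.1 to 104 times in shIER5L samples. The ranges of both conditions overlapped. CDH2 spans 27950966 to 28177446 on chromosome 18, minus strand.

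VIM encodes vimentin, the intermediate filament protein of mesenchymal cells, and was the most precisely measured gene of the set. It had 564, 527, 516 and 548 CPM in shScramble samples, and 531, 525, 522 and 568 CPM in shIER5L samples. The group means, 538.6 ± 21.2 and 536.8 ± 21.4 CPM (SD, n = 4 each), differed by less than the spread between replicates. The 95% interval of the log2 fold change, -0.09 to 0.09, leaves room for a change of no more than about that size in either direction (edgeR adjusted p = 0.976). VIM lies on chromosome 10, plus strand, from 17228259 to 17237593.

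Among the transcription factors, ZEB1 is a zinc finger repressor of CDH1 and of the miR-200 genes. It had 78.8, 77.6, 72.1 and 78.7 CPM in shScramble samples and 69.1, 72.8, 76.8 and 78.6 CPM in shIER5L samples. The 2 lowest samples were shIER5L 1 and shScramble 3. Its log2 fold change was -0.05 (SE 0.0556, 95% interval -0.16 to 0.07, edgeR adjusted p = 0.755). ZEB1, whose 3' UTR holds CATCTCA of the hairpin as do 18.86% of the genes searched, was not called lower. An effect of that match was not tested. It spans 31318495 to 31529814 on the plus strand of chromosome 10.

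ZEB2, its close relative with the same kind of zinc finger clusters, had 84, 81, 76 and 112 counts in shScramble samples and 83, 109, 84 and 106 counts in shIER5L samples. The replicates of each group spread more than the groups differed (log2 fold change 0.10, 95% interval -0.26 to 0.47). Per kilobase, ZEB1 exceeded ZEB2 by 43.0 to 64.8 times in shScramble samples and by 43.6 to 60.2 times in shIER5L samples. PC3 cells thus carried ZEB1 as the main ZEB transcript in both conditions. ZEB2 spans 144384081 to 144524583 on the minus strand of chromosome 2.

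SNAI1 encodes SNAIL, the founding zinc finger repressor of E-cadherin. It had 11, 6, 4 and 2 counts in shScramble samples and 4, 0, 8 and 7 counts in shIER5L samples, too few to be tested. The 0 in shIER5L 2 allows up to 3 counts in that library, or more where both reads of a fragment were counted. SNAI1 lies on chromosome 20, plus strand, from 49982999 to 49988886. Its relative SNAI2 encodes SLUG, which is also a regulator of basal and neural crest cells, and was the abundant SNAIL family member. Its CPM were 28.7, 26.6, 24.2 and 25.9 in shScramble samples and 29.1, 25.7, 22.1 and 24.5 in shIER5L samples. The highest and the lowest values were both from shIER5L samples. The log2 fold change was -0.05 (SE 0.0880, 95% interval -0.24 to 0.13, edgeR adjusted p = 0.835). SNAI2 lies on chromosome 8, minus strand, from 48917690 to 48921740.

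TWIST1 encodes a basic helix-loop-helix factor of mesoderm that raises N-cadherin and represses E-cadherin in carcinoma cells. It was the one gene of the set whose conditions did not overlap, which held for 1855 (10.9%) of the genes tested. Its CPM were 15.9, 14.97, 15.7 and 13.4 in shScramble samples 1 to 4, and 20.9, 19.5, 16.4 and 18.5 in the shIER5L samples. The lowest shIER5L sample, shIER5L 3, was thus only slightly above the highest shScramble sample, shScramble 1. The TWIST1 mean was 14.98 ± 1.16 CPM under shScramble and 18.8 ± 1.92 CPM under shIER5L (SD, n = 4 each), a fold of 1.255 (95% interval 1.09 to 1.44). On the log2 scale the difference was 0.33 (SE 0.0947), with an edgeR adjusted p of 0.0691, above the threshold. Before adjustment it was 0.00331, which ranked 811 among all genes.

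The difference in TWIST1 was called by DESeq2 (log2 fold change 0.32, adjusted p = 0.0277) and by none of the other 15 alternative fits. Over the 16 alternatives the adjusted p ran from 0.0277 to 0.197 and the log2 fold change from 0.27 to 0.38, above 0 in each. The two-sided exact permutation test gave 0.0286, the smallest p that 4 samples against 4 can give. Any gene whose conditions do not overlap gets this p, so it adds nothing to the lack of overlap. Per kilobase, the TWIST1 level was 0.580 to 0.729 times that of SNAI2 in shScramble samples and 0.805 to 0.854 times in shIER5L samples. This ratio was chosen after the values were seen and was not tested. TWIST1 is annotated from 19020991 to 19117672 on chromosome 7, minus strand. An antisense gene, ENSG00000232821, overlaps it with 7 to 28 counts per sample, and reads of such partners were not told apart by strand in the counting.

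**Figure D3:**
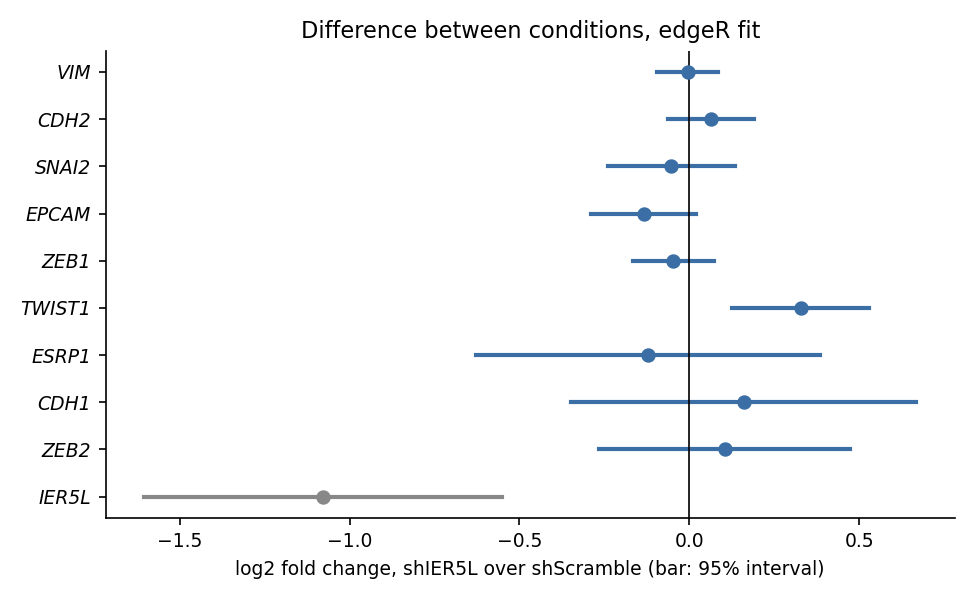
Log2 fold change of shIER5L over shScramble for the 9 tested genes in blue, from the most to the least abundant, and for IER5L in gray, with bars for the 95% intervals of the edgeR fit. TWIST1, at 0.33, is the only one of the 9 whose interval leaves out 0, and the intervals widen for the weakly expressed ESRP1, CDH1 and ZEB2.

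Antisense genes overlapped 6 of the 10 genes in the counted annotation. VIM-AS1 had 22 to 43 counts per sample and ZEB1-AS1 had 21 to 48, small beside VIM and ZEB1 themselves. ENSG00000227279 over CDH2 had 1 to 11 counts, ENSG00000260798 over CDH1 at most 1, and ZEB2-AS1 at most 3. SNAI1, SNAI2, EPCAM and ESRP1 had no overlapping gene.

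For each of the 6 genes with at least 10 CPM, the 2 genes with the most similar course over the 8 samples were looked up among 9098 genes of at least 10 CPM, by Pearson's r of log2 CPM. VIM went most closely with EEF1A1 (r = 0.982) and RPL6 (r = 0.966), a translation factor and a ribosomal protein. CDH2 went with LSM5 (r = 0.991) and HPS5 (r = 0.987), and ZEB1 with RALGAPA1 (r = 0.972) and NKTR (r = 0.961). SNAI2 went with KMT5A (r = 0.926) and FRAT2 (r = 0.922), and EPCAM with UQCC1 (r = 0.940) and TXNL4B (r = 0.935). TWIST1 went with the noncoding RNA FIRRE (r = 0.985) and with CSNK1D (r = 0.961). None of these partners is a gene of the EMT set. With 8 points in 2 conditions and this many genes to choose from, the values describe these samples only.

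The wider EMT gene lists, 161 genes with the 10 included, were read from the same fit, and 121 of them were tested. At an adjusted p under 0.05 there were 4, or 3.31%, against 3.93% of all genes tested. At an unadjusted p under 0.05 there were 28, or 23.1%, against 16.5%.

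Of 25 genes of epithelial junctions, 24 were tested and none was called (8 at an unadjusted p under 0.05, median log2 fold change 0.03). The level of E-cadherin RNA was not typical of this list. CTNNB1, which encodes the cadherin partner β-catenin, had 114 RPKM, the tight junction gene CLDN4 had 68.5, and the desmosomal cadherin gene DSG2 had 19.96. CTNNA1, which encodes the α-catenin known to be lost in PC3 cells, had 39 to 47 counts per sample (1.93 CPM in shScramble and 1.72 in shIER5L cells). It was not called.

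Of 9 keratin genes, 6 were tested and 2 fell. KRT81, a hair keratin with near-identical neighbors on chromosome 12 that make its count uncertain, had 181, 225, 242 and 190 CPM in shScramble samples and 138, 112, 121 and 116 in shIER5L samples. All shIER5L samples were below all shScramble samples, where 10.9% of the genes tested had no overlap in 1 direction or the other. The log2 fold change of KRT81 was -0.78 (SE 0.0848, edgeR adjusted p = 5.64e-05), and it was called in each of the 16 alternatives. KRT7, a keratin of simple ductal epithelia, had 36, 56, 62 and 51 counts in shScramble samples and 28, 34, 27 and 21 in shIER5L samples. Here too the groups did not overlap in CPM, and the log2 fold change was -0.90 (SE 0.215, edgeR adjusted p = 0.0264). The call on KRT7 was lost without shScramble 2, 3 or 4 and without shIER5L 1, 3 or 4, with an adjusted p of up to 0.0989, and an opposite-strand pseudogene, KRT87P, overlaps it with 35 to 110 counts. The most abundant members did not pass the test: KRT19 had 481 CPM in both conditions and KRT18 had 399 and 406 CPM, which are the keratins of simple, luminal epithelium. The basal keratin KRT14 was at 0 in all samples. The junction and keratin lists came to 1554 to 1576 and 1097 to 1227 summed CPM in shScramble samples, and 1602 to 1766 and 984.5 to 1146 in shIER5L samples.

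Epithelial regulators numbered 19, of which 11 were tested and none was called (2 at an unadjusted p under 0.05, median log2 fold change -0.06). The protease inhibitor genes SPINT2 and SPINT1 had 25.95 and 6.07 RPKM and the Krüppel-like factor gene KLF5 had 13.2. Like ESRP1, many members of this list were close to silent: 8 of the 19 had at most 10 counts in every sample. ESRP2 had 2.75 RPKM, above ESRP1, and was not called (log2 fold change -0.23, edgeR adjusted p = 0.276). NFATC3 overlaps ESRP2 on the opposite strand with 693 to 840 counts, and such reads were not told apart by strand.

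**Figure D4:**
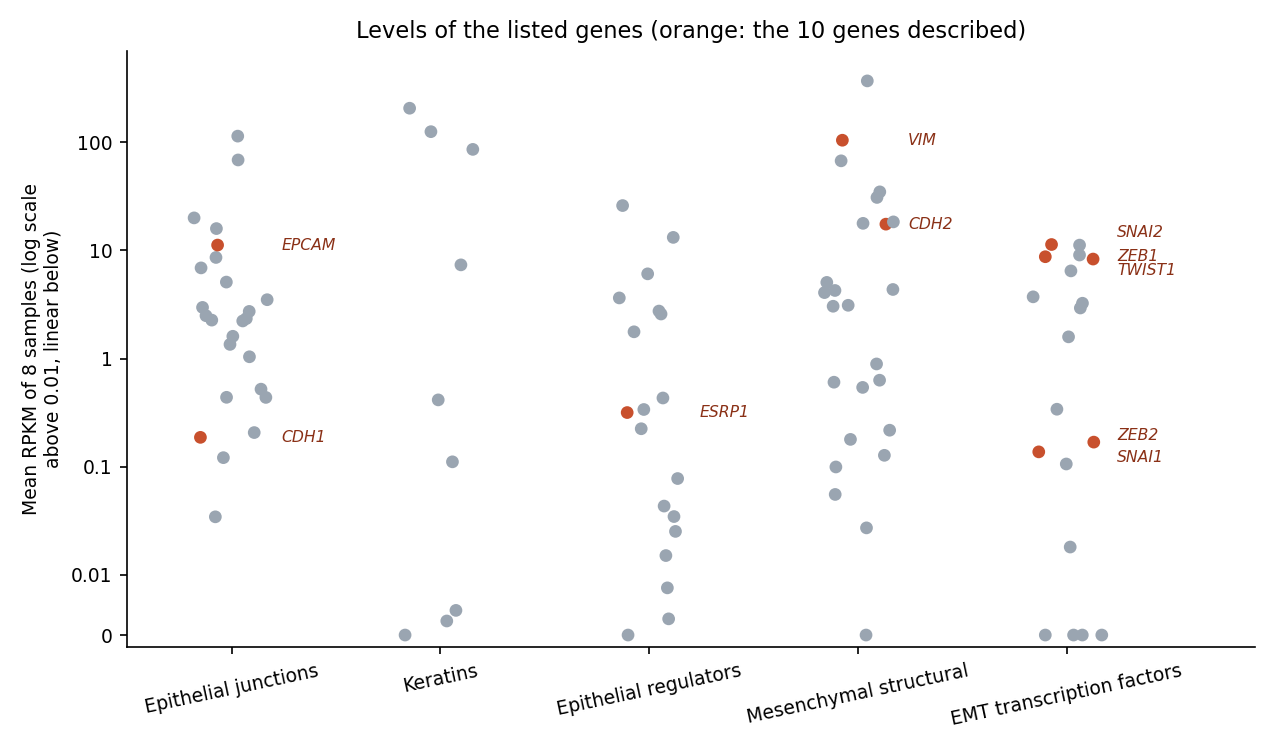
Mean RPKM over the 8 samples of each gene of 5 EMT lists, on a scale that is logarithmic above 0.01 and linear below, with the 10 genes described in orange and labeled. Each list spans several orders of magnitude: CDH1 sits near the bottom of the junction genes, VIM near the top of the mesenchymal genes, and the EMT factors split into a group around SNAI2, ZEB1 and TWIST1 and a group at or near 0.

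On the mesenchymal side, 21 of 25 structural genes were tested, with 1 called higher and 1 called lower (5 at an unadjusted p under 0.05, median log2 fold change 0.03). CALD1 encodes caldesmon, an actin-binding protein of contractile and migrating cells. It had 43.4, 33.8, 37.9 and 35.4 CPM in shScramble samples and 46.7, 46.1, 50.6 and 48.5 in shIER5L samples. It rose by 0.35 on the log2 scale (SE 0.0752, edgeR adjusted p = 0.0143), and lost the call without shScramble 2, shScramble 4 or shIER5L 3 (adjusted p up to 0.0662). THBS1 encodes thrombospondin, a matrix glycoprotein that activates latent TGF-β. It had 34.0, 30.4, 32.6 and 37.7 CPM in shScramble samples and 20.2, 21.0, 25.79 and 25.99 in shIER5L samples, a log2 fold change of -0.53 (SE 0.0948, edgeR adjusted p = 0.00409). THBS1 was called in each of the 16 alternatives. In both genes the conditions did not overlap, as in 10.9% of the genes tested, and CALD1 and THBS1 moved in opposite directions.

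The 3' UTR of THBS1, of 4097 bases, held 1 CATCTCA of the hairpin. Those of CALD1, KRT7 and KRT81, of 2384, 161 and 342 bases, held neither CATCTCA nor ACATCTC. Over all genes searched 24.03% held either heptamer, and a longer 3' UTR has more room for a match. The part of this match in the fall of THBS1 was not tested. The match is on the plus strand and in capitals.
THBS1, chr15:39596197-39596203: aaacctacCATCTCAgtgagcac
CALD1 and THBS1 also held 1 CAGTATT and 1 CAGTGTT each. The most abundant mesenchymal genes were S100A4, a calcium-binding protein gene, with 369 RPKM, then VIM, and then the mesenchymal cadherin gene CDH11 with 67.2 RPKM. CDH11 was thus above CDH2 per kilobase. None of these passed the test.

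EMT transcription factors numbered 19, and 12 were tested, none of them called. Only TWIST1 had an unadjusted p under 0.05, and the median log2 fold change was -0.00090. SNAI2, HMGA2, a chromatin factor gene, with 11.2 RPKM, and SOX4 with 9.06 had the highest means. TWIST2, FOXC2, GSC and KLF8 were at 0 counts in every sample, which allows up to 3 counts per library, or more where both reads of a fragment were counted.

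Pathways around these factors were also read. Of 21 TGF-β and BMP pathway genes, 20 were tested and none was called (5 at an unadjusted p under 0.05, median log2 fold change 0.05). ID1, an inhibitor of helix-loop-helix factors, had 77.5 RPKM, the latent TGF-β binding protein gene LTBP1 had 48.5, and ID2 had 22.5. Of 15 genes for corepressors and for enzymes that control the stability of these factors, 14 were tested and none was called (2 at an unadjusted p under 0.05, median log2 fold change 0.06), with HDAC1 at 115 RPKM, KDM1A at 69.1 and CTBP1 at 19.4. The 6 splicing factor genes of the EMT program were all tested and none was called (2 at an unadjusted p under 0.05, median log2 fold change -0.02), and SRSF1, MBNL1 and PTBP1 led them with 175, 52.5 and 36.8 RPKM.

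The identity of the samples was read from 2 further lists. Of 13 markers of blood, endothelial and stromal cells, 9 had at most 10 counts in every sample, among them the T cell gene CD3E at 0. Their summed level was 19.5 to 22.2 CPM in shScramble and 21.1 to 23.8 CPM in shIER5L samples. PECAM1 and PDGFRA, at 1.16 and 1.11 RPKM, and LUM at 0.246 RPKM were the only ones tested, and none was called (1 at an unadjusted p under 0.05). Among genes of luminal prostate cells, HOXB13 was abundant at 109 RPKM, while KLK2, KLK3 and FOLH1 were at 0.

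**Figure D5:**
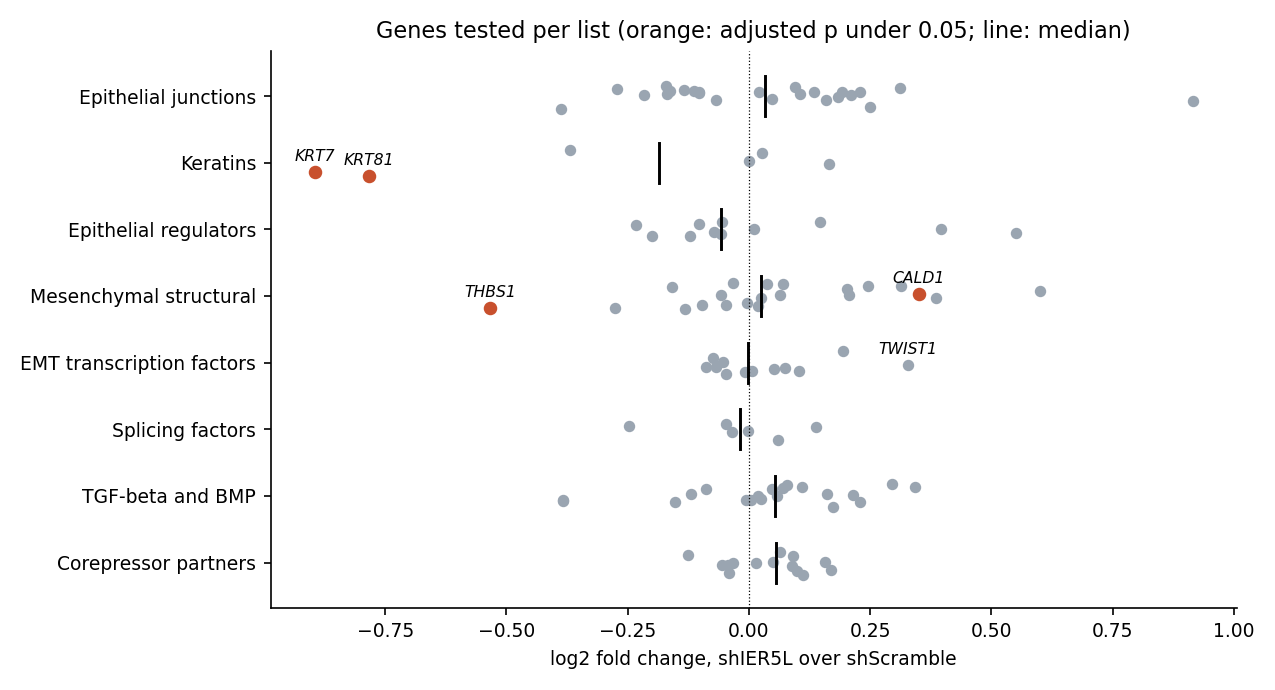
Log2 fold change of shIER5L over shScramble for each tested gene of 8 lists, with a black line at each list's median and the genes at an adjusted p under 0.05 in orange and labeled, beside TWIST1. The medians lie close to 0 except that of the 6 keratins, at -0.18, and the only called genes are KRT7, KRT81, THBS1 and CALD1.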

How the data were processed

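RNA-seq was performed on PC3 cells, 4 samples of each hairpin. The methods name 4 plates of cells per experiment and do not say whether each sample was a separate plate. Groups and replicate numbers came from the sample titles. Per the submitters' processing notes and the study's methods, the authors aligned reads to hg38 with STAR 2.7.5c, removed PCR duplicates with SAMtools 1.15 and counted exons with featureCounts 2.0.3. The methods name a ribosomal depletion kit and the sample records a poly(A) kit. The deposited values are raw counts per Ensembl gene, without normalization, beside the counted exon length. Per the file header, counting used primary alignments, no chimeric pairs, no strand option and single reads of each pair, so that counts exceed independent fragments (a median of 65.6% of counts from 1 to 20 were even).

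Computed here: filterByExpr, TMM scaling, and edgeR 4.0.16 quasi-likelihood tests in R 4.3.3 with condition as the only term, Benjamini-Hochberg adjusted over 16959 genes. Genes were called at an adjusted p under 0.05. RPKM used TMM CPM and the counted exon length. Similarity used log2 CPM with a prior count of 2. Symbols matched 56948 identifiers. Intervals are 95% from the fit, and a count of 0 allows 3 counts, covering counting error only and too tight where both reads of a pair were counted. Fits were tested on simulated data. Alternatives were RLE and upper quartile scaling, no filter, a mean of at least 1 CPM, DESeq2 1.42.0, limma 3.58.1 voom, a replicate block, halved counts and each sample left out.

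Members and lists were chosen with earlier results of these data known. The text names the members, IER5L, list genes that were called, the 3 of highest RPKM per list, genes known to be lost in PC3 and the 2 most similar genes per member. Other list genes were named after their values were seen. Some genes of these lists are not reported here. Proteome and cell assays were not analysed here.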

Additional observations from a re-analysis of the deposited data

How the results depend on the processing

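The log2 fold changes of the 9 tested EMT genes kept their sign and side of the threshold in 137 of 143 combinations of a gene and 1 of the 16 alternative fits. DESeq2 gave no adjusted p for CDH1. VIM turned to 0.0149, 0.0038, 0.0057 and 0.0017 without shScramble 1, shScramble 4, shIER5L 2 and shIER5L 3, within -0.0337 to 0.0149 over the samples left out. ESRP1 turned to 0.0245 without shScramble 2, within -0.249 to 0.0245. DESeq2 called 1 of the 9 genes, TWIST1. Apart from TWIST1, the lowest adjusted p of the 9 genes in any alternative was 0.302. The cause of these changes was not tested.

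Genes called numbered 305 to 756 with a sample left out (lowest without shScramble 3), and 86 to 135 with the fold threshold. Of the listed EMT genes, 4 were called in the fit reported, beside 666 genes in all (3.93% of all genes tested). Without the filter on low counts it was 9, beside 903 in all (2.53%). With DESeq2 it was 8, beside 947 in all (7.28%). With a sample left out, 2 to 7 of the listed genes were called. There were 2 without shScramble 2 (1.97% of all genes) or shScramble 4 (2.5%), and 7 without shIER5L 4 (3.18%). With a replicate block, 6 of the listed genes were called, beside 655 genes in all (3.86%). None of the 9 tested EMT genes was among them, and TWIST1 had an edgeR adjusted p of 0.0719. Same-numbered samples had correlations of their deviations from -0.0478 to 0.144, other pairs from -0.159 to 0.108, so the numbers were not taken to pair samples. Scalings moved the median of all genes by less than 0.02. Depth limits CDH1, ESRP1, ZEB2 and SNAI1, with at most 112 counts per sample.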

Other observations

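Besides TWIST1, 9 genes of the EMT lists were called in some alternative fits but not in the fit reported, and they were looked at after their values were seen. TGFBR2, the type II TGF-β receptor gene, had 92.1, 92.5, 98.3 and 98.2 CPM in shScramble samples and 101, 111, 110 and 108 CPM in shIER5L samples. These did not overlap, as in 10.9% of the genes tested. The log2 fold change of TGFBR2 was 0.17 (SE 0.0492, edgeR adjusted p = 0.0631), and DESeq2 called it. QKI, an RNA-binding protein that favors mesenchymal splice forms, had 74, 71.1, 77.5 and 85.7 CPM in shScramble samples and 59.8, 58.9, 68.1 and 73.0 CPM in shIER5L samples, with a log2 fold change of -0.25 (edgeR adjusted p = 0.0844). PDGFRA, a receptor of mesenchymal cells, had 8.63 to 10.4 CPM in shScramble and 10.8 to 13.2 CPM in shIER5L samples (log2 fold change 0.36, edgeR adjusted p = 0.0730).

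The tight junction gene CLDN4 had 280, 304, 301 and 264 CPM in shScramble samples and 393, 442, 313 and 278 CPM in shIER5L samples, where shIER5L 4 lay among the shScramble samples (log2 fold change 0.31, edgeR adjusted p = 0.127). It was called without the filter on low counts, with a replicate block and without shIER5L 4. The other 5 were LTBP2 (log2 fold change 0.34, edgeR adjusted p = 0.102), COL6A2 (0.21, adjusted p = 0.521) and MMP14 (0.20, adjusted p = 0.0974), with values above 0, and TGFB3 (-0.38, adjusted p = 0.136) and ID3 (-0.38, adjusted p = 0.1995), with values below 0.

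The level of VIM per kilobase was 8.45 to 9.65 times that of EPCAM in shScramble samples and 9.34 to 9.98 times in shIER5L samples. The level of ZEB1 was 21.1 to 38.1 times that of ESRP1 in shScramble samples and 23.6 to 32.7 times in shIER5L samples. Both ratios overlapped between conditions.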
